A study of Mus musculus with 6 samples.

Results

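The genes described here are 40 members of the TGF-beta, BMP and activin signalling system, out of 46078 genes counted in each library. They were chosen by name, as the rows whose Ensembl identifiers map to a list of 18 secreted proteins (6 BMP ligands, 3 TGF-beta ligands, 2 activin subunits, 5 extracellular antagonists and 2 latent TGF-beta binding proteins), 11 receptors, 7 Smads and the 4 Id genes. All 40 were found, and all 40 had enough counts to enter the genotype comparison, which covered 17254 genes. RNA sequencing was done on adenomas of the mouse small intestine, with 3 libraries per genotype. The knockout mice were miR-34a/b/c-/-;ApcMin/+ and the wild-type mice were miR-34a/b/c+/+;ApcMin/+, so that both groups carried the ApcMin allele, which makes intestinal adenomas form. The labels give the strain as C57BL6/SV129, a mixed background, and the age as 18 weeks for every mouse. Each library came from 3 pooled tumors of 1 mouse, so the unit of replication is the mouse, and the tumors also held stroma, vessels and blood cells. In such bulk tissue, fewer cells of a type and less RNA per cell cannot be told apart.

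Ligands of this family are secreted dimers that bring type I and type II receptor kinases together. Activated receptors phosphorylate Smad proteins, which pair with Smad4 and enter the nucleus: TGF-beta and activin act mainly through Smad2 and Smad3, and BMPs through Smad1 and Smad5, with the Id genes among the best known BMP targets. In the intestine, BMP signals restrain stem cells and promote differentiation towards the villus, stromal antagonists such as gremlin protect the crypt base from them, and TGF-beta arrests epithelial growth and drives fibroblasts to make matrix.

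The microRNAs deleted in the knockout guide silencing of messenger RNAs that pair with their seed, bases 2 to 8 counted from the 5′ end. They are shown first because the shared seed defines which of the 40 transcripts hold a candidate site. The mature 5p strands in RefSeq (GRCm38.p6) are given 5′ to 3′ with the seed in capitals. Mir34a lies on chromosome 4, where the mature strand spans 150068473 to 150068494 on the plus strand, and Mir34b on chromosome 9, where it spans 51103610 to 51103632 on the minus strand; mmu-miR-34c-5p is named only.
mmu-miR-34a-5p: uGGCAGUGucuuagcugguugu
mmu-miR-34b-5p: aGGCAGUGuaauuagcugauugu
Both strands carry the seed GGCAGUG.

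The longest annotated 3′ UTR of each gene was searched, on the strand of the messenger RNA, for CACTGCC (pairing with the whole seed) or ACTGCCA (pairing with bases 2 to 7, followed by A); the motifs overlap, and a stretch that holds both was counted once. Of the 40 members, 12 (30%) held a match, beside 3653 of the 14724 tested genes with an annotated 3′ UTR (24.8%). The members' 3′ UTRs had a median length of 1950 bases, longer than the 1306 of all these genes. The 12 were Bmp7, Tgfb3, Inhbb, Grem1, Chrd, Ltbp2, Bmpr1a, Bmpr2, Acvr2a, Tgfbr1, Tgfbr3 and Smad7. Bmp2, Tgfb2 and Ltbp1, which are among the members with the smallest p-values below, had no match in this window. The 6 windows of 30 bases printed here belong to the secreted members and the receptor that recur in the results, with the matched bases in capitals, 5′ to 3′ on the strand of the messenger RNA, in GRCm38 (mm10).
Bmp7: tctaagtctctCACTGCCcaccttggcgag
Grem1: aggcagacattCACTGCCcatcaaagatac
Inhbb, first match: tcctgcctgctCACTGCCcgcctggcatcc
Inhbb, second match: ggttagtcagaaACTGCCAtttgaaaaaaa
Tgfb3: atcatatcttgCACTGCCtggaattaagga
Tgfbr3: tgagcaaagccCACTGCCtttacagtcagg
All lie on the minus strand in the 3′ UTR. The Bmp7 match spans 172870058 to 172870064 and the Grem1 match 113747837 to 113747843, both on chromosome 2. Those of Inhbb span 119416789 to 119416795 and 119415898 to 119415904 on chromosome 1. The printed match of Tgfb3 spans 86057281 to 86057287 on chromosome 12, and that of Tgfbr3 spans 107108369 to 107108375 on chromosome 5. For Chrd, the longest 3′ UTR belongs to a transcript annotated as a target of nonsense-mediated decay. Whether its protein-coding transcripts hold a match was not looked at separately.

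The libraries held 26375035 to 38354355 counts assigned to genes, and mitochondrial genes took 2.31% to 4.18% of them. The precursor genes Mir34a, Mir34b and Mir34c had 0 counts in all 6 libraries, a count that allows up to 3 per library and does not check the genotype. On the first principal component, 40.8% of the variance, knockout 1 and knockout 3 lay apart from the rest at -53.0 and -49.2. Knockout 2 was at 27.1 and the wild-type libraries at -0.28 to 58.5, so on this axis 1 knockout library lay among the wild-type ones. On the second component knockout 2 was highest, at 50.5. There the wild-type libraries were at -33.4 to 16.8 and the other knockouts at -9.75 and 4.58. Markers of gut epithelium were high in every library, with Epcam, an epithelial surface protein, at 1792 to 2716 CPM, the counts of a gene scaled to the total of its library. Levels below are CPM with library totals adjusted by TMM, given in the order of mice 1, 2 and 3.

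None of the 40 genes passed the test (edgeR's quasi-likelihood test with Benjamini-Hochberg adjustment over 17254 genes; the lowest adjusted p was 0.790, for Bmp2 and Tgfb2). By the same test 16 genes passed in all (0.0927%), the knockout being higher in 7 (0.0406%) and lower in 9 (0.0522%). DESeq2 also called 0 of the 40, with a lowest adjusted p of 0.0648 for Tgfb2. At an unadjusted p under 0.05, edgeR's test picked out 8 members, all 8 higher in the knockout: Bmp2, Bmp4, Bmp5, Tgfb2, Inhba, Inhbb, Tgfbr3 and Ltbp1. Over all genes tested, 5.85% had such a p, 3.27% with a higher and 2.58% with a lower level. The members' count depended on single mice: it was 3 without knockout 3, 4 without knockout 1, 4 without wild-type 2 and 13 without knockout 2.

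The estimated log2 fold change, knockout over wild-type, was above 0 for 30 of the 40 and had a median of 0.29 and a range of -0.26 to 1.31. Over all genes tested, 51.1% were above 0 and the median was 0.01. By class, the median was 0.73 for the 18 secreted members, of which 6 had groups that did not overlap, 0.17 for the 11 receptors, 0.02 for the 7 Smads and -0.20 for the 4 Id genes. The secreted, receptor and Smad classes join smaller roles and were formed after the values were seen, so the contrast between classes is a description. With library size alone as the scaling, 35 of the 40 were above 0, and the median of all genes tested also rose, to 0.08. All 3 knockout libraries were above all 3 wild-type libraries for 6 members (Bmp2, Bmp4, Bmp5, Tgfb2, Grem1 and Ltbp1), and below them for 0. Of all genes tested, 11.2% had groups that did not overlap, 5.86% with the knockout above and 5.34% with it below. Without knockout 3 the members' median was 0.16, and without wild-type 2 it was 0.15.

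**Figure D1:**
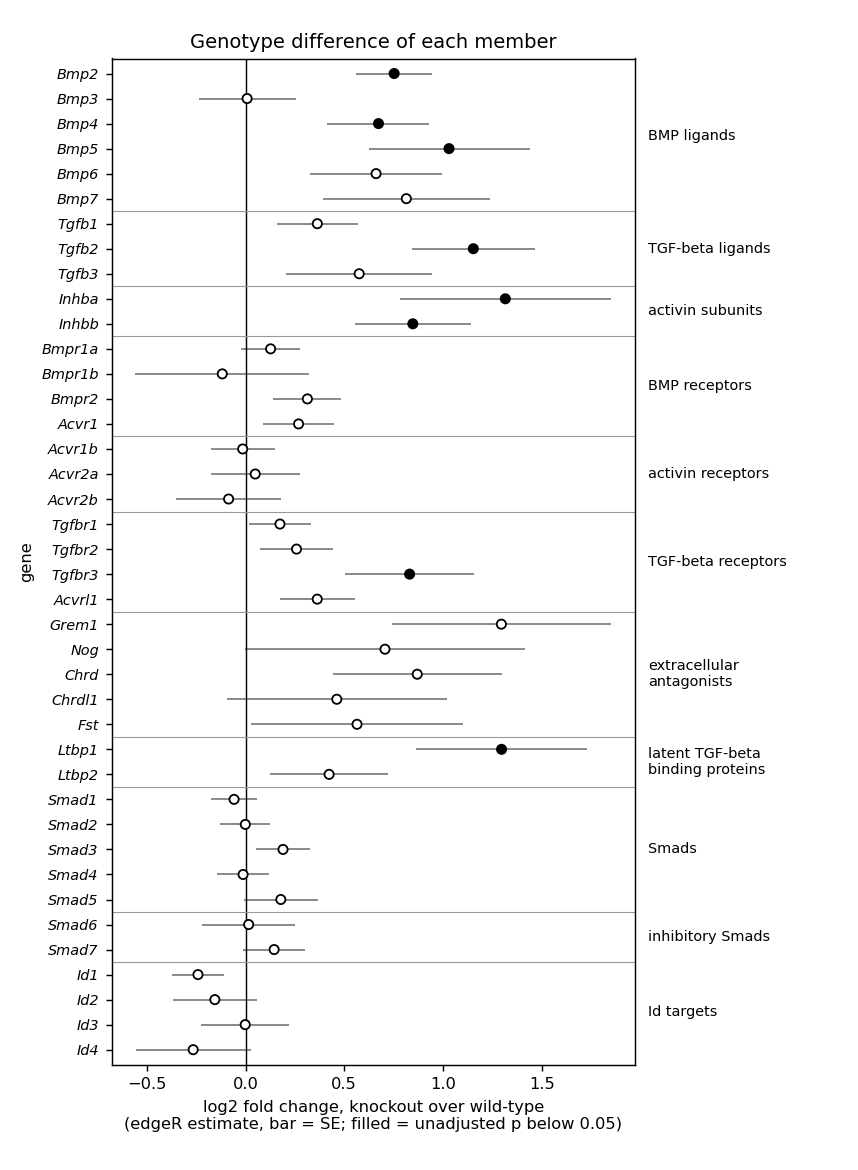
Log2 fold change (knockout over wild-type, horizontal axis) of each of the 40 genes, grouped by role, as the edgeR estimate with its SE; filled points have an unadjusted p under 0.05. The 18 secreted members lie at or to the right of 0, the Smads sit near 0 and the 4 Id genes lie at or to the left of it.

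All 6 BMP ligands had an estimate above 0, with a median of 0.71, and 3 of them had an unadjusted p under 0.05. Bmp2, a ligand made by mature villus epithelium and stroma, was at 36.0, 27.6 and 30.5 CPM in the knockout libraries and at 20.1, 14.2 and 21.6 CPM in the wild-type libraries. Every knockout mouse lay above every wild-type mouse, and the lowest knockout value exceeded the highest wild-type value by more than the SD within either group. The means were 31.4 ± 4.27 and 18.6 ± 3.91 (SD over 3 mice), and the log2 fold change was 0.75 ± 0.19 (SE, edgeR, unadjusted p = 0.00591, adjusted p = 0.790). Bmp4, the BMP of the subepithelial mesenchyme, was at 19.3, 15.5 and 29.0 CPM in the knockout and at 14.5, 10.9 and 14.7 CPM in the wild-type. The groups were separate by a narrow margin, since knockout 2 lay just above wild-type 3, and knockout 3 stood highest. The log2 fold change was 0.67 ± 0.26 (edgeR, unadjusted p = 0.0348, adjusted p = 0.793), and 0.37 without knockout 3.

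Bmp5, another mesenchymal BMP, was at 7.30, 6.74 and 14.7 CPM in the knockout and 6.28, 2.96 and 4.87 CPM in the wild-type. Knockout 3 held about the sum of the other knockout values, and the margin between the groups was small; 46.7% of the exon bases of Bmp5 are also annotated to an antisense gene, which itself received 11 counts. Its log2 fold change was 1.03 ± 0.41 (edgeR, unadjusted p = 0.0392, adjusted p = 0.793) and was 0.57 without knockout 3. Bmp7, the BMP ligand with the highest level per length, was at 67.9, 24.8 and 70.4 CPM in the knockout and at 37.3, 19.98 and 35.5 CPM in the wild-type. The groups overlapped, because knockout 2 was below 2 of the wild-type mice while the other knockouts were well above them. The log2 fold change of 0.81 ± 0.42 did not pass (edgeR, adjusted p = 0.793). Bmp6 had a log2 fold change of 0.66 ± 0.33, but 5.74% of its exon bases overlap the opposite-strand gene Txndc5, whose counts summed to 112000 against 1234 for Bmp6, so its level is uncertain. Bmp3, which is described as an inhibitor of other BMPs, differed least, at 0.01 ± 0.25, with 17.3 to 21.9 CPM in the knockout and 13.7 to 26.2 CPM in the wild-type.

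The 3 TGF-beta ligands also all had an estimate above 0. Tgfb2, the isoform with the lowest level here, was at 8.39, 4.03 and 5.90 CPM in the knockout and 2.80, 2.58 and 2.85 CPM in the wild-type. The wild-type mice were tightly grouped at 2.74 ± 0.145 CPM (SD), the knockout mice were spread at 6.11 ± 2.19, and every knockout mouse lay above every wild-type mouse. The log2 fold change was 1.15 ± 0.31 (edgeR, unadjusted p = 0.00752, adjusted p = 0.790). It was 0.85 without knockout 1, its highest library, and 1.13 without knockout 3 and wild-type 2. Tgfb1, the main isoform of immune and stromal cells, was at 30.4, 20.6 and 34.6 CPM in the knockout and at 23.2, 19.6 and 23.8 CPM in the wild-type. Knockout 2 fell inside the wild-type range, and the log2 fold change of 0.36 ± 0.21 did not pass (edgeR, adjusted p = 0.802); it was 0.19 without knockout 3 and 0.55 without knockout 2. Tgfb3 was intermediate, at 6.70 to 13.8 CPM in the knockout and 4.59 to 9.66 CPM in the wild-type, with a log2 fold change of 0.58 ± 0.37.

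Activin subunits gave some of the largest estimates. Inhba, which encodes the beta A subunit of activin A, was at 9.52, 5.65 and 15.9 CPM in the knockout and at 3.79, 1.95 and 6.75 CPM in the wild-type. The spread within each genotype was wide, and knockout 2 lay below wild-type 3. The log2 fold change of 1.31 ± 0.54 was the highest of the 40 genes (edgeR, unadjusted p = 0.0439, adjusted p = 0.793) and was 0.85 without knockout 3. Inhbb, the beta B subunit, was at 43.8, 25.0 and 46.3 CPM in the knockout and 23.6, 14.8 and 25.6 CPM in the wild-type. Knockout 2 was again the lowest knockout and lay just under wild-type 3, so the groups overlapped slightly. The means were 38.4 ± 11.6 and 21.3 ± 5.70, a log2 fold change of 0.85 ± 0.29 (edgeR, unadjusted p = 0.0233, adjusted p = 0.793).

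Antagonists bind BMPs or activins outside the cell and keep them from their receptors. All 5 had an estimate above 0, with a median of 0.71, and 0 of them had an unadjusted p under 0.05. Grem1, gremlin, the BMP antagonist of the stroma around the crypt base, was at 158, 74.4 and 80.2 CPM in the knockout and at 44.2, 14.7 and 68.4 CPM in the wild-type. Knockout 1 was far above the rest and wild-type 2 far below, and the groups did not overlap although knockout 2 and wild-type 3 were close. Means of 104 ± 46.6 and 42.4 ± 26.9 gave a log2 fold change of 1.29 ± 0.56 (edgeR, unadjusted p = 0.0530, adjusted p = 0.793). The estimate was 0.89 without wild-type 2 and 0.86 without knockout 1. Fst, follistatin, which binds activin, was at 19.4, 4.82 and 18.4 CPM in the knockout and 7.77, 6.99 and 14.1 CPM in the wild-type. The wild-type values lay inside the knockout range, with knockout 2 the lowest of all 6, and the log2 fold change was 0.56 ± 0.53. Chrdl1, a chordin-like BMP antagonist, gave 0.46 ± 0.56, and Chrd, chordin, gave 0.87 ± 0.43 at under 3 CPM, with 239 exon bases shared with Thpo on the opposite strand. Nog, noggin, stayed under 1 CPM in every library.

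Ltbp1 encodes a latent TGF-beta binding protein, which holds the inactive ligand in the matrix. Ltbp1 was at 51.5, 97.7 and 65.8 CPM in the knockout and 44.5, 13.8 and 29.2 CPM in the wild-type. All knockout mice lay above all wild-type mice, and here knockout 2 was the highest of the 6 libraries, unlike in the ligands above. The means were 71.7 ± 23.6 and 29.2 ± 15.4, a log2 fold change of 1.30 ± 0.43 (edgeR, unadjusted p = 0.0203, adjusted p = 0.793). Ltbp2, its relative in elastic matrix, ranged from 11.7 to 23.8 CPM in the knockout and from 9.69 to 14.9 CPM in the wild-type, a log2 fold change of 0.42 ± 0.30.

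**Figure D2:**
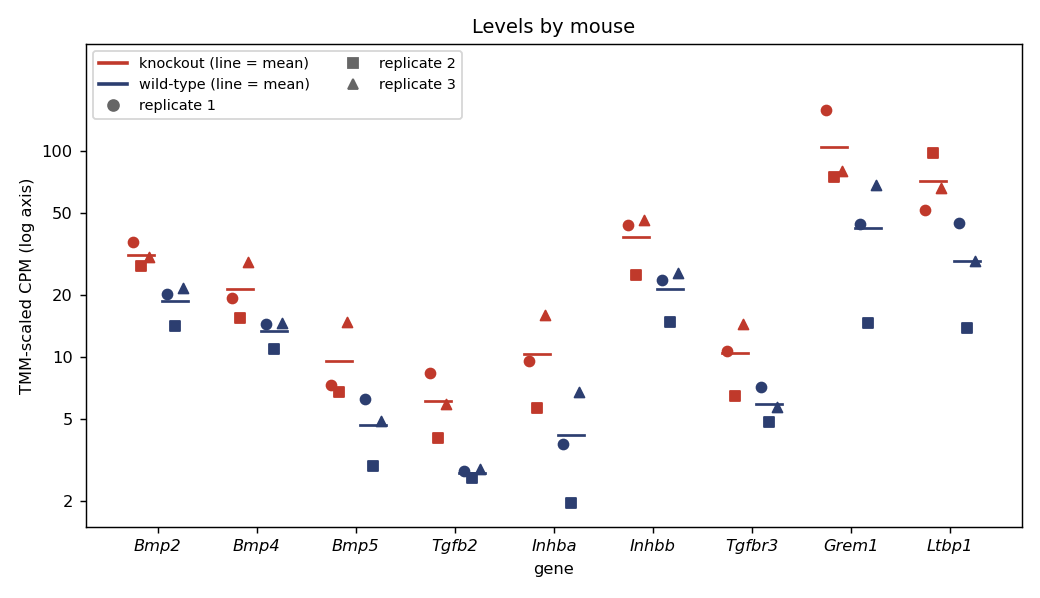
TMM-scaled CPM (log axis) in each mouse for the 9 members with an unadjusted p under 0.05 or with groups that do not overlap. Colours mark the genotype, symbols the replicate number, which the labels do not give as a pairing, and lines the group mean. Bmp2, Bmp4, Bmp5, Tgfb2, Grem1 and Ltbp1 have every knockout point above every wild-type point, while Inhba, Inhbb and Tgfbr3 overlap.

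On the receiving side the differences were smaller. Of the 11 receptors, 8 had an estimate above 0, with a median of 0.17, and 1 had an unadjusted p under 0.05. The median was 0.091 without knockout 3 and 0.096 without wild-type 2. The gene with such a p was Tgfbr3, betaglycan, a coreceptor that presents TGF-beta2 and binds inhibin, at 10.6, 6.44 and 14.4 CPM in the knockout and 7.18, 4.81 and 5.74 CPM in the wild-type. Knockout 2 lay below wild-type 1, so the groups overlapped. The log2 fold change was 0.83 ± 0.33 (edgeR, unadjusted p = 0.0385, adjusted p = 0.793), and 0.52 without knockout 3. Tgfbr2, the type II TGF-beta receptor, was at 168, 140 and 221 CPM in the knockout and at 139, 145 and 159 CPM in the wild-type. Only knockout 3 stood clear of the wild-type range by more than its width, and the log2 fold change of 0.26 ± 0.18 (edgeR, adjusted p = 0.813) became 0.05 without that library. Tgfbr1, its type I partner, gave 0.17 ± 0.16, and Acvrl1, the type I receptor of endothelium, gave 0.36 ± 0.19.

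Bmpr1a, the type I BMP receptor of the gut epithelium and the receptor with the highest level per length, was at 126, 167 and 123 CPM in the knockout and at 121, 128 and 132 CPM in the wild-type. Apart from knockout 2 the values of both groups lay between 121 and 132, and the log2 fold change of 0.13 ± 0.15 (edgeR, adjusted p = 0.859) was -0.03 without that library. Bmpr2, the type II BMP receptor, was at 99.2, 109 and 127 CPM in the knockout and 104, 71.5 and 94.99 CPM in the wild-type. The groups overlapped, with wild-type 2 the lowest, and the log2 fold change was 0.31 ± 0.17 (edgeR, adjusted p = 0.801), or 0.17 without wild-type 2 and 0.20 without knockout 3. Acvr1, another type I receptor for BMPs, gave 0.27 ± 0.18, and Bmpr1b was barely present, at 0.231 to 0.576 CPM.

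The activin receptors were nearest to equal. Acvr1b, the type I activin receptor, was at 78.8, 114 and 82.5 CPM in the knockout and at 90.1, 97.4 and 90.1 CPM in the wild-type, with the wild-type mice inside the knockout range. Its log2 fold change was -0.01 ± 0.16 (edgeR, adjusted p = 0.986), whose sign turned under library size scaling, to 0.04. Acvr2b, a type II receptor, was at 2.01, 2.84 and 2.33 CPM in the knockout and 2.80, 2.61 and 2.21 CPM in the wild-type, a log2 fold change of -0.09 ± 0.26 (edgeR, adjusted p = 0.951). Acvr2a gave 0.05 ± 0.23, with exon bases shared with Orc4 on the opposite strand.

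The Smads, which carry the signal to the nucleus, sat close to 0. Of the 7, 4 had an estimate above 0, the median was 0.02, and 0 had an unadjusted p under 0.05. The median depended on single mice: it was 0.20 without wild-type 1, 0.15 without knockout 2 and 0.07 without knockout 1. By library size scaling it was 0.09, beside 0.08 for all genes tested. Smad3, the DNA-binding effector of TGF-beta and activin, was at 85.4, 74.2 and 91.4 CPM in the knockout and at 79.9, 64.5 and 75.6 CPM in the wild-type. The groups overlapped, and the log2 fold change of 0.19 ± 0.13 (edgeR, adjusted p = 0.813) had the smallest p of the Smads, and was 0.11 without knockout 3 and 0.10 without wild-type 2. Smad4, the shared partner of the pathway and an intestinal tumor suppressor, was at 95.4, 124 and 107 CPM in the knockout and at 107, 105 and 118 CPM in the wild-type. The genotypes differed by less than the spread between mice, with a log2 fold change of -0.01 ± 0.13 (edgeR, adjusted p = 0.986) that was 0.05 under library size scaling. Smad7, an inhibitory Smad that TGF-beta induces, was at 118, 107 and 128 CPM in the knockout and 123, 86.1 and 110 CPM in the wild-type. Wild-type 2 was lowest and the remaining values interleaved, a log2 fold change of 0.14 ± 0.16 (edgeR, adjusted p = 0.849) that was 0.013 without wild-type 2. Smad1, Smad2, Smad5 and Smad6 had log2 fold changes of -0.06, -0.00, 0.18 and 0.02.

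The Id genes encode inhibitors of bHLH transcription factors and serve as a readout of BMP signalling, though other signals also act on them. All 4 had an estimate below 0, from -0.26 for Id4 to -0.00 for Id3, with a median of -0.20. The direction depended on single mice: without wild-type 1, 2 of the 4 were above 0 and the median was 0.016, and without knockout 2, 1 was above 0 and the median was -0.082. Under library size scaling, which put the median of all genes tested at 0.08, 1 of the 4 was above 0. Id1 was at 141, 118 and 138 CPM in the knockout and at 170, 160 and 139 CPM in the wild-type. Wild-type 3 lay inside the knockout range, and the other wild-type mice were above it. Means of 132 ± 12.7 and 156 ± 15.6 gave a log2 fold change of -0.24 ± 0.13 (edgeR, unadjusted p = 0.115, adjusted p = 0.802). Id2 was at 44.6 to 59.99 CPM in the knockout and 46.8 to 78.1 CPM in the wild-type, and Id3 at 111 to 186 CPM in the knockout and 128 to 182 CPM in the wild-type. Both genes overlapped between the genotypes. Whether the ligands and the Id genes differed from each other in their genotype effect was not tested.

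**Figure D3:**
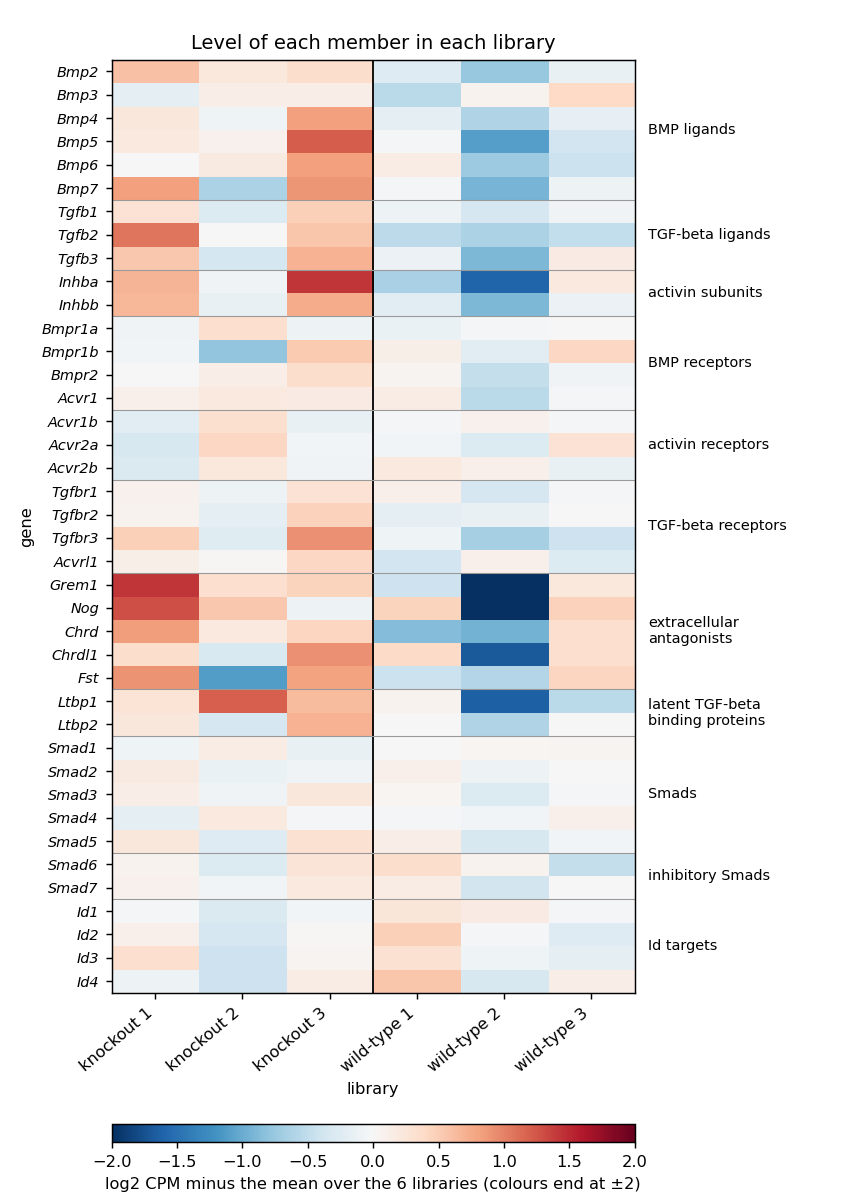
Log2 CPM of each of the 40 genes in each library, minus its mean over the 6 libraries (red higher, blue lower; colours end at ±2), with genes grouped by role. Knockout 3 is red and wild-type 2 blue across most secreted members, and the Smads are pale throughout.

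Levels can be compared roughly between genes once divided by exon length, as CPM per kilobase of exon. The length joins all annotated exons of a gene and can exceed that of the transcript expressed, so the order and shares are approximate. On that scale Id1 and Id3 were the most abundant and the antagonists Nog and Chrd and the receptor Bmpr1b the least. Over the 6 libraries the mean level was 124 for Id1, 83.5 for Id3, 29.5 for Smad4, 24.8 for Smad7, 23.4 for Id2, 20.9 for Bmpr1a, 20.8 for Acvr1b, 19.8 for Tgfbr2 and 17.7 for Grem1. Bmpr1a, Acvr1b and Tgfbr2 lay within their spread of each other. The most abundant ligand was Bmp7 at 10.6, followed by Bmp4 at 7.70, Bmp2 at 7.03 and Inhbb at 7.01, a group whose values over mice overlapped. Tgfb1 stood at 5.03 and Tgfb2 at 0.764. Bmpr1b was the lowest, at 0.0701.

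**Figure D4:**
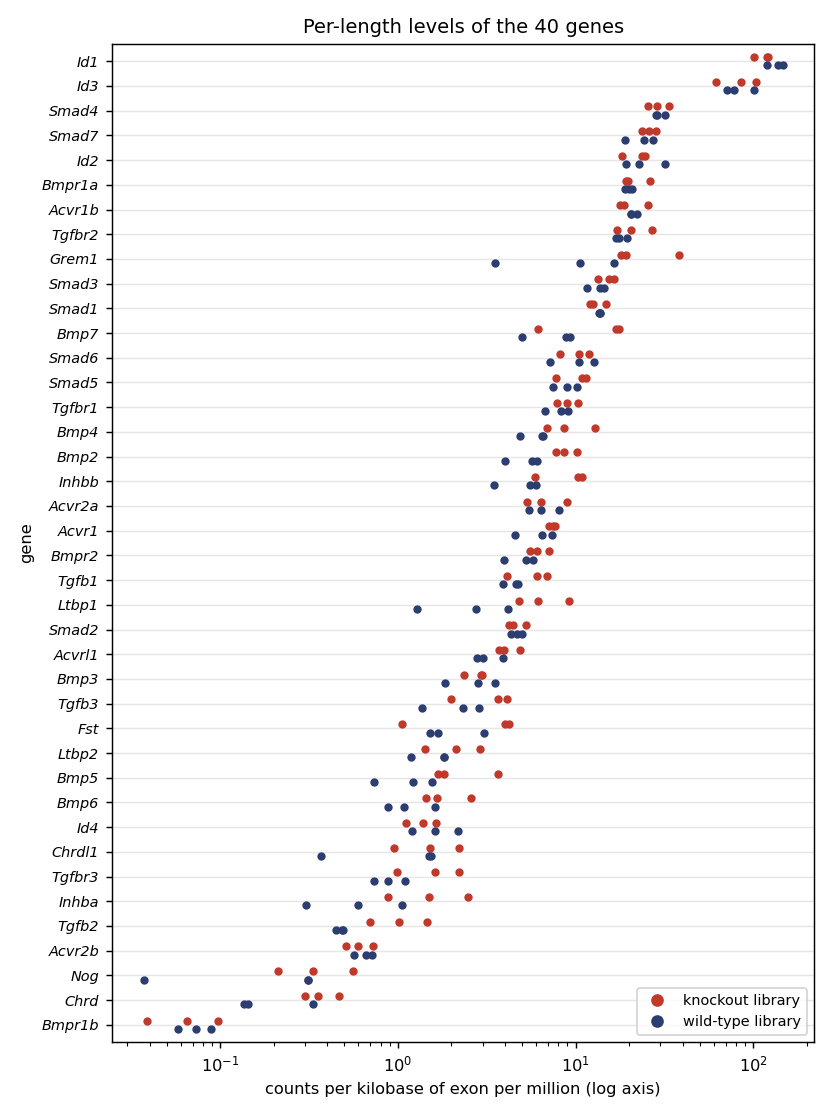
CPM per kilobase of exon (log axis) in each library for the 40 genes, ordered by their mean over the 6 libraries. Id1 and Id3 are highest at means of 124 and 83.5, Bmpr1b is lowest at 0.0701, and for most genes the knockout and wild-type points overlap.

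Summed over a role on the same scale, the BMP ligands reached 38.8 ± 10.7 for the knockout against 24.0 ± 4.98 for the wild-type, and the antagonists 30.5 ± 12.7 and 13.9 ± 8.05. The latent binding proteins, at 8.86 ± 1.82 and 4.34 ± 1.77, were the one role whose sums did not overlap. By contrast the receptor-linked and common Smads summed to 72.2 ± 2.14 and 70.0 ± 4.0, and the Id genes to 221 ± 35.1 and 244.5 ± 35.2. Within the BMP ligands, Bmp7 gave 33.4% of the BMP ligand level for the knockout against 31.6% for the wild-type, Bmp4 24.3% and 25.0%, and Bmp2 23.7% and 21.9%. The largest difference there was for Bmp3, at 7.57% and 11.8%. Tgfb1 gave 57.3% and 63.0% of the TGF-beta ligand level, and Inhba 14.8% and 10.9% of the activin subunit level; the shares of these 6 genes overlapped between the genotypes. Of the TGF-beta ligand level, Tgfb2 gave 12.97%, 10.3% and 8.51% in the knockout mice, against 6.51%, 7.82% and 6.12% in the wild-type mice, without overlap. Exact two-sided permutation tests on 22 such sums and shares could not go below p = 0.1, which the Tgfb2 share and the sum of the binding proteins both reached (adjusted p = 0.508), so none passed.

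The 12 members with a seed match all had an estimate above 0, beside 30 of all 40 members. Their median log2 fold change was 0.50, against 0.22 for the 28 members without a match. The contrast overlaps with that between classes: all 18 secreted members were above 0, matched or not, and the 4 Id genes, all below 0, held no match. Without knockout 2 the estimate of Bmpr1a, a matched member, was -0.03. Over all tested genes with an annotated 3′ UTR, the medians were 0.06 with a match and 0.01 without, and 2161 of the 3653 genes with a match were above 0. The matched members with the largest estimates were Grem1, Chrd, Inhbb, Tgfbr3 and Bmp7, while Bmpr1a, Acvr2a and Smad7 were near 0. Of the former, 4 have their windows printed above, and Chrd was matched in its decay-target transcript. A single member, Smad7, had a full-seed match followed by A, a class found in 6.44% of all these genes. A match in a 3′ UTR is a description of the sequence and does not show that the microRNA acts there.

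The libraries did not contribute evenly. Of the 40 genes, 19 were highest in knockout 3 and 23 were lowest in wild-type 2. Of the 18 secreted members, 10 were highest in knockout 3 and 16 lowest in wild-type 2. The same counts were not made over all genes tested, so they do not set the members apart from other genes. Leaving out both of these libraries, a setting chosen after seeing the data, put 24 of the 40 genes above 0, with a median of 0.08 and 2 unadjusted p-values under 0.05, for Bmp2 and Ltbp1. The secreted members then had a median of 0.34, compared with 0.73 for all 6 libraries, and 15 of the 18 were above 0. Single genes responded differently to that setting. Tgfb2, Bmp2, Grem1 and Ltbp1 gave log2 fold changes of 1.13, 0.61, 1.05 and 1.02, whereas Bmp4, Bmp5, Bmp7 and Inhba gave 0.26, 0.33, 0.35 and 0.52.

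The summed fibroblast and endothelial markers were each highest and lowest in the same libraries. The 12 fibroblast markers summed to 1553, 810 and 2885 CPM in the knockout and 1121, 492.5 and 1390 CPM in the wild-type, highest in knockout 3 and lowest in wild-type 2, and 10 of 12 had an estimate above 0 with a median of 0.76. The 10 smooth muscle markers summed to 1006, 984 and 928 CPM in the knockout and 887, 458 and 653 CPM in the wild-type, lowest in wild-type 2 but not highest in knockout 3. These sums did not overlap, and all 10 were above 0 with a median of 0.72. Endothelial markers, at 414 to 553 and 315 to 375.5 CPM, also summed highest in knockout 3 and lowest in wild-type 2. Their sums did not overlap either, and 9 of 10 were above 0. The 7 mast cell markers were at 668, 466 and 243 CPM in the knockout and 216.5, 84.3 and 443 CPM in the wild-type, with knockout 3 below wild-type 3, and 7 of 7 were above 0. Epithelial markers went the other way, at 14009 to 18690 CPM in the knockout and 16606 to 21147 CPM in the wild-type, with 11 of 12 below 0 and a median of -0.26. Leukocyte markers, at 91.2 to 145 and 102 to 148 CPM, had 2 of 11 tested genes above 0, and glial and neuronal markers, at 9.87 to 17.1 and 9.41 to 11.9 CPM, had 4 of 8. No defining marker of these lists was at 3 counts or fewer over the libraries. The part of these cell types in the higher levels of the secreted members was not tested.

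**Figure D5:**
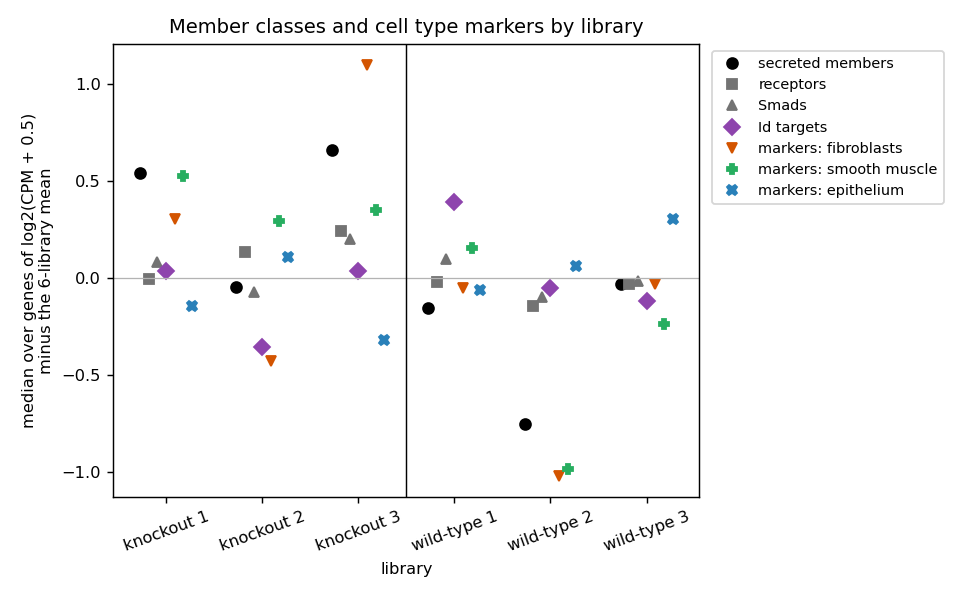
For each library, the median over a set of genes of log2(CPM + 0.5) minus the mean over the 6 libraries (vertical axis), for the member classes and for the fibroblast, smooth muscle and epithelial markers. The secreted members run from -0.753 in wild-type 2 to 0.662 in knockout 3, the fibroblast markers from -1.02 to 1.10 in the same libraries, and the receptors from -0.143 to 0.241.

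In knockout 2 the fibroblast markers had a score of -0.428, the smooth muscle markers 0.294 and the secreted members -0.0449. For the secreted members that lay between wild-type 1 at -0.153 and wild-type 3 at -0.0284.

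Other genes of the pathway were taken from a list of names. Of 92 found in the tables, 72 were tested, 55 of them with an estimate above 0 (51.1% of all genes tested were), and 0 passed (edgeR, lowest adjusted p = 0.791). An unadjusted p under 0.05 was found for 6 of the 72, all higher in the knockout, beside 5.85% of all genes tested; without single mice this count ran from 1, without knockout 1 or wild-type 2, to 23, without knockout 2. The 16 transcriptional targets had a median of 0.55, the 20 extracellular regulators 0.41 and the 18 Smad cofactors 0.05. Of the targets, 12 were above 0 and 4 below, among the latter Cdkn1a at -0.258 and Cdkn2b at -0.255. Col1a1 and Tagln among the targets, and Dcn among the regulators, also stand in the fibroblast or smooth muscle marker lists above. Tgfbi, a matrix protein named for its induction by TGF-beta, was at 176, 199 and 170 CPM in the knockout and 116, 112 and 148 CPM in the wild-type. The groups were well apart, and the log2 fold change was 0.54 ± 0.15 (edgeR, unadjusted p = 0.00875, adjusted p = 0.791). Ccn2, connective tissue growth factor, was at 34.1, 12.2 and 20.9 CPM in the knockout and 5.96, 3.84 and 13.2 CPM in the wild-type. Knockout 2 lay just below wild-type 3, and the log2 fold change was 1.55 ± 0.54 (edgeR, unadjusted p = 0.0244).

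Hey1, a target shared by BMP and Notch signalling, gave 0.64 ± 0.25. Among the regulators, Ltbp3 gave 0.67 ± 0.26. Among the other receptors and coreceptors, Lrrc32, which anchors latent TGF-beta at the cell surface, gave 0.66 ± 0.27. Smurf1, a ubiquitin ligase that removes Smads and receptors, was at 75.6, 77.2 and 77.0 CPM in the knockout and at 66.9, 64.9 and 61.2 CPM in the wild-type. Both groups were tight and did not overlap, although the log2 fold change was a modest 0.25 ± 0.10 (edgeR, unadjusted p = 0.0365). Gdf15, a divergent stress-induced family member with the smallest p of the other ligands, was at 11.9, 2.61 and 5.45 CPM in the knockout and 3.45, 3.59 and 3.55 CPM in the wild-type. Knockout 1 alone stood far above the wild-type values and knockout 2 below them, a log2 fold change of 0.92 ± 0.51 (edgeR, unadjusted p = 0.118).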

How the data were processed

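Gene counts of 6 adenoma libraries were used as deposited by the authors. Per the submitters' processing notes the tools were TopHat2 2.1.0 and HTSeq 0.6.1 and the build was mm10; the strand setting, annotation release and handling of multi-mapping reads were not given in the sources used here. Strand matters for the overlapping genes named in the report. Of 46078 identifiers, 45143 matched a symbol. Counts were tested with edgeR 4.0.16 in R 4.3.3 (TMM scaling, filterByExpr, robust quasi-likelihood F-test over 6 libraries, Benjamini-Hochberg adjustment over 17254 genes, threshold 0.05), a script checked on simulated data. Libraries of 1 genotype differed by far more than sampling noise (chi-square of 47.0 or more per degree of freedom), so each counted as 1 replicate. Exon lengths and 3′ UTRs came from GENCODE M21 on GRCm38. The log2(CPM + 0.5) scores are descriptions.

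The members, the other pathway genes and the marker lists were chosen with earlier results of these data known. A member was described in full where its adjusted or unadjusted p was under 0.05, its groups did not overlap at a mean of at least 1 CPM, or it had the smallest p or the highest level per length of its role; other pathway genes were named at an unadjusted p under 0.05 or as the smallest p of their list. Gdf1 was not analysed here. Alternatives were DESeq2 1.42.0, limma 3.58.1 (voom), other scalings and count filters, non-robust fitting, a replicate block and leaving out each mouse.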

Additional observations from a re-analysis of the deposited data

How the results depend on the processing

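No member passed the adjusted threshold in any alternative; the lowest adjusted p of a member was 0.0648 (Tgfb2, DESeq2). The count of all genes that passed was 110 with DESeq2, ran from 9 to 41 as each mouse was left out in turn, and was 0 without knockout 3 and wild-type 2, a setting chosen after seeing the data. Members with an unadjusted p under 0.05 numbered 3 to 13 as each mouse was left out and 2 without both libraries, where the median log2 fold change was 0.081. Of the other pathway genes, 18 had such a p with the replicate block, 1 to 23 as each mouse was left out, and 0 without both libraries. Replicate numbers correlated at 0.22, 0.27 and 0.08 between genotypes. Knockout 1 and knockout 2 correlated best with the wild-type library of the same number, and knockout 3 with wild-type 1. The labels do not say that the numbers pair the mice, and these correlations do not settle it. In edgeR the replicate block called 14 genes in all and 0 members, and gave 10 members an unadjusted p under 0.05.

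Of the alternatives for single named members, 288 kept the sign and 12 turned it, for genes near 0. As each mouse was left out, log2 fold changes ran from -0.029 (without knockout 2) to 0.200 for Bmpr1a, from -0.197 to 0.078 for Acvr1b, from -0.224 to 0.019 for Acvr2b and from -0.117 to 0.070 for Smad4. Library size alone gave 0.037 for Acvr1b and 0.047 for Smad4, beside a median of 0.077 over all genes tested. No count filter gave 0.00029 for Smad4. Without knockout 3 and wild-type 2, Acvr1b was 0.095 and Smad7 -0.050. Differences in share (knockout minus wild-type, percentage points) ran from -0.653 to 4.76 for Bmp2, from -1.83 to 1.13 for Bmp4 and from -2.04 to 7.07 for Bmp7 as each mouse was left out, and without length scaling that of Bmp4 was 0.180. With only a full-seed match followed by A, 1 member held a site. The cause of these changes was not tested. With 3 mice per genotype, exact tests cannot go below p = 0.1, and for genes near 0 counts (Nog, Bmpr1b) depth limits precision.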

Other observations

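Further genes of the pathway were highest in knockout 1. Msx1, a homeobox target of BMP signalling, was at 44.98, 6.24 and 15.9 CPM in the knockout and 13.6, 12.3 and 5.46 CPM in the wild-type. Gdf11, a ligand close to myostatin, was at 14.8, 2.51 and 9.70 CPM in the knockout and 5.13, 2.99 and 6.19 CPM in the wild-type, with a log2 fold change of 0.92 ± 0.61. Dand5, an antagonist of Nodal, was the 1 tested pathway gene outside the 40 whose knockout mice were all below the wild-type mice. It was at 1.52, 1.35 and 1.56 CPM against 1.74, 2.20 and 2.38 CPM, a log2 fold change of -0.51 ± 0.27 (edgeR, unadjusted p = 0.0967). Of the 72 such genes, 5 had all knockout mice above. Over all genes tested, 5.34% had the knockout wholly below and 5.86% wholly above. Msx1, Gdf11 and Dand5 were picked after their values were seen, and none passed the adjusted threshold.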
